A study of Mus musculus with 8 samples.

Results

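The Ptgs2 locus of mouse bone marrow-derived macrophages was described from ATAC-seq, an assay of chromatin accessibility in which DNA that is open to the Tn5 transposase is tagged and sequenced. Members were chosen by position alone, as every peak on chromosome 1 of build mm9 that ends at or after 151880000 and starts at or before 152000000, a window of 120 kb. The window held 6 of the 74207 peaks of the deposited table, and 5 of the 6 passed the filter on low levels and were tested. Cells came from 2 wild-type (WT) C57Bl/6 mice, were grown in CMG medium with serum, and each mouse gave 1 library for each of 4 groups. Unstimulated cells received no agent. Fenoterol cells received 1 µM of this β2 adrenergic receptor agonist for 15 min. LPS cells received 100 ng/mL of lipopolysaccharide, a bacterial ligand of Toll-like receptor 4, for 1 h. Fenoterol + LPS cells received the agonist for 15 min and then LPS for 1 h, so cells with both agents were taken at a later time after the agonist than cells with fenoterol alone. The series title concerns early Il1b transcription under β2 adrenergic signalling, and the comparisons here ask how LPS and the agonist, alone and together, changed chromatin at Ptgs2.

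Ptgs2 encodes prostaglandin-endoperoxide synthase 2, also called cyclooxygenase-2, the inducible enzyme that converts arachidonic acid to prostaglandin H2, the precursor of prostaglandin E2 and thromboxane. In macrophages its transcription is low at rest and is induced early by LPS through NF-kB, C/EBP and CREB/AP-1 factors. β2 adrenergic receptors raise cyclic AMP, which activates CREB by way of protein kinase A. In the RefSeq annotation of build GRCm38.p6, used for gene order only, Ptgs2 lies between the long noncoding RNA gene Ptgs2os and the pseudogene Gm9687. Pla2g4a, which encodes the cytosolic phospholipase A2 that releases arachidonic acid, lies further upstream, and Ptgs2os2 (Lincrna-cox2), a long noncoding RNA gene named for this locus, lies further downstream. Ptgs2 is on the + strand and Ptgs2os on the - strand.

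The promoter is shown because the highest peak of the window lies at the start of Ptgs2. The first line gives the 250 bases before the RefSeq start of Ptgs2 (GRCm38.p6, chr1:150099781-150100030, + strand). The second gives 30 bases shortly after that start (GRCm38.p6, chr1:150100035-150100064, + strand), which hold the element where a short cyclic AMP response motif meets an E-box. Capitals mark matches to the motifs searched.
Ptgs2, before the start: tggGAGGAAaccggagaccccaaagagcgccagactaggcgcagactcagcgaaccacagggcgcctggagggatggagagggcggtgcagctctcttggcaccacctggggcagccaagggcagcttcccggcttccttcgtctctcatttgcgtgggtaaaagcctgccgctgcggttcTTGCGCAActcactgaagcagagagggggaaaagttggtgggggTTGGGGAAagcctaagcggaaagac
Ptgs2, after the start: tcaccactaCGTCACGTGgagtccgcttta

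In all, 8 motifs were searched on both strands of the RefSeq promoter windows, each 300 bases long with 50 of them after the start, in 32851 windows. The C/EBP motif TTNNGNAA matched at bases -69 to -62 and -25 to -18 before the start, and 40.7% of all windows held it. The cyclic AMP response motif in its short form TGACG matched the - strand at bases 14 to 18 after the start (20.8% of windows) and overlapped the E-box CACGTG at 17 to 22 (7.15% of windows). The Ets motif GAGGAA, which PU.1 can bind, matched at -247 to -242 (28.3% of windows). The full cyclic AMP response element TGACGTCA (1.79% of windows), the AP-1 motif TGANTCA (7.81%), a 10-letter NF-kB motif (1.63%) and the TATA box TATAAA (13.6%) had no match in this window. The promoter windows of Ptgs2 and Ptgs2os, on opposite strands, share 256 bases, so accessibility at the start of Ptgs2 cannot be assigned to either gene. Because the sequences are of another build than the peaks, no motif was placed inside a peak.

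The peaks are named here by the distance of their centre from that of the peak at the start of Ptgs2. The start peak, at 151946704 to 151947523, holds 151947000, the rounded start of the gene given with the window (151947000 to 151956000). It was 820 bp wide, wider than 90.9% of all peaks, and its mean level was above that of 95.6% of all peaks. No other peak of the table lay within the rounded gene interval. Upstream were low peaks at 35.5 kb (151911468 to 151911732) and 23.1 kb (151923903 to 151924166). Downstream, beyond the gene, were 3 peaks at 43.8 kb (151990682 to 151991124), 45.3 kb (151992165 to 151992590) and 51.5 kb (151998314 to 151998913). No gene was assigned to the 5 peaks away from the start, and macrophage markers were not checked, since no annotation of mm9 was used here.

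Levels are RPKM, reads per kb of peak relative to the reads in all peaks of a library, scaled between libraries. The shallowest library, unstimulated cells of mouse 1, had 1426873 recovered reads in peaks and the other 7 had 3164446 to 4040292, and the 6 members held 2 to 234 reads per library. At the start peak the shallow library gave 54 reads (exact 95% Poisson interval 40.6 to 70.5) and the others 144 to 234. No member was at 1 read, the value given to peaks without reads. Such intervals cover counting error only. A level averages over the cells of a library, so more cells with an open site and a more open site per cell cannot be told apart.

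Accessibility was higher with LPS at the start of Ptgs2 and at the peak 51.5 kb downstream, in cells without and with fenoterol. Cells with both agents were also taken later after the agonist than fenoterol cells. In that comparison, the average LPS effect and the interaction, LPS and this time cannot be told apart. At the start peak, unstimulated cells had 49.2 RPKM in mouse 1 and 42.2 RPKM in mouse 2, and LPS cells had 69.1 and 73.4 RPKM. Fenoterol cells had 55.5 and 50.8 RPKM there, and fenoterol + LPS cells 72.2 RPKM in both mice. All 4 libraries with LPS thus lay above all 4 without, and the lowest with LPS was 13.5 RPKM above the highest without.

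Against unstimulated cells, LPS took the start peak from 45.7 ± 4.92 to 71.3 ± 3.07 RPKM (SD, n = 2), a ratio of 1.56. The log2 change, of the scaled RPKM plus a pseudocount of 4 as in all changes below, was 0.60 (SE 0.14, limma-trend with Benjamini-Hochberg adjustment over all tested peaks, adjusted p = 0.00659). With fenoterol present, the change from 53.2 ± 3.35 to 72.2 ± 0.0204 RPKM was a ratio of 1.36 (log2 change 0.42, SE 0.14, adjusted p = 0.0453). Each mouse showed both rises. Averaged over the fenoterol states, the LPS effect at the start peak was 0.51 (SE 0.096, adjusted p = 0.000532). Without the LPS library of mouse 1 the adjusted p against unstimulated cells was 0.0525, and without that of mouse 2 it was 0.107. By voom, a limma fit to recovered reads, it was 0.0963 without the unstimulated library of mouse 2. The rise with fenoterol present missed the threshold without any 1 of 6 libraries (adjusted p 0.0796 to 0.236), the exceptions being the unstimulated ones. By voom this rise was also lost in some fits without 1 library, and over all such fits its log2 change ran from 0.38 to 0.51. In a fit that did not let the spread vary with the mean level of a peak, the calls without and with fenoterol were lost (adjusted p = 0.0697 and 0.159). The call on the average effect held there (0.0176).

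**Figure D1:**
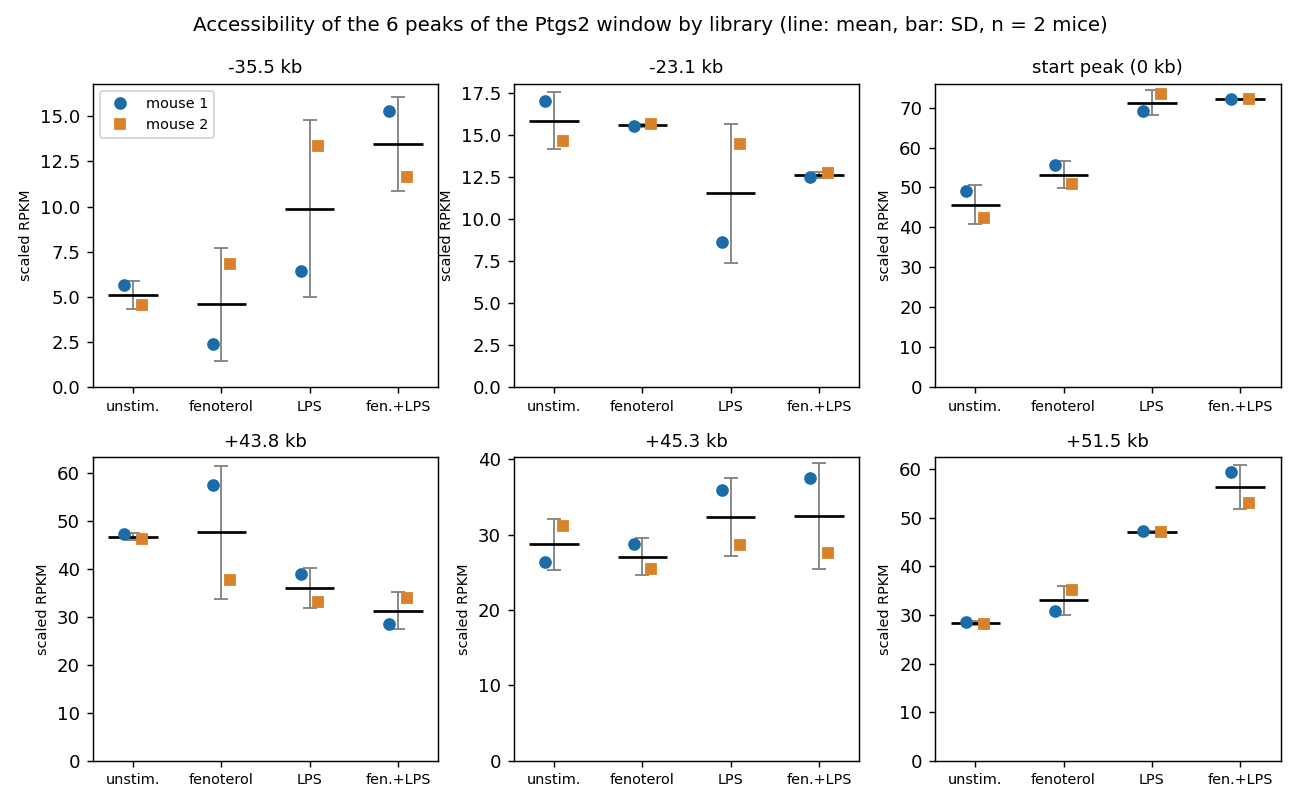
Scaled RPKM (y axis, from 0 in each panel) of the 6 peaks in the 4 groups (x axis), with a circle for mouse 1, a square for mouse 2, a line for the mean and a bar for the SD. The start peak and the peak 51.5 kb downstream stand higher in all 4 libraries with LPS than in the 4 without, and the peak 43.8 kb downstream has 1 fenoterol library, that of mouse 1 at 57.5 RPKM, far above the other.

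The peak 51.5 kb downstream rose from a lower level. There were 28.7 and 28.1 RPKM in unstimulated cells of mouse 1 and mouse 2, 30.9 and 35.2 RPKM with fenoterol, 47.2 and 47.0 RPKM with LPS, and 59.5 and 53.1 RPKM with both. The libraries with and without LPS did not overlap. Its level went from 28.4 ± 0.408 to 47.1 ± 0.139 RPKM with LPS alone, a log2 change of 0.66 (SE 0.14, adjusted p = 0.00364). Against fenoterol cells, fenoterol + LPS took it from 33.0 ± 3.01 to 56.3 ± 4.54 RPKM, with a log2 change of 0.70 (SE 0.14, adjusted p = 0.00151). The average LPS effect was 0.68 (SE 0.097, adjusted p = 2.96e-05), and both mice rose in each fenoterol state. The call against unstimulated cells was lost without the LPS library of mouse 2 (adjusted p = 0.0512) and in the fit without the mean trend (0.0509). By voom it missed the threshold when unstimulated mouse 2 was left out (0.169). Over the 8 libraries its log2 level correlated with that of the start peak at r = 0.927, a description in which the libraries with and without LPS form separate groups.

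The peak 43.8 kb downstream went the other way. It had 47.3 and 46.2 RPKM in unstimulated cells, 57.5 and 37.8 RPKM with fenoterol, 39.0 and 33.1 RPKM with LPS, and 28.6 and 34.1 RPKM with both. The fenoterol libraries of the 2 mice lay 19.7 RPKM apart, and the lower of them was below the LPS library of mouse 1. With fenoterol present this peak fell with LPS (log2 change -0.53, SE 0.17, adjusted p = 0.0391), from 47.6 ± 13.9 to 31.3 ± 3.87 RPKM. By limma-trend that call was lost without any 1 of 5 libraries. Leaving out the fenoterol library of mouse 1 gave a change of -0.25 (adjusted p = 0.535), and leaving out its fenoterol + LPS library gave -0.41 (0.294). The adjusted p was 0.0794 when the fenoterol + LPS library of mouse 2 was dropped, and 0.0517 and 0.0519 when the LPS library of mouse 1 or mouse 2 was. Against unstimulated cells the log2 change was -0.34 (SE 0.17, adjusted p = 0.209), and the average over both states was -0.43 (SE 0.12, adjusted p = 0.00986). Both mice were lower with LPS in each state, but the call on the average was lost without the fenoterol library of mouse 1 (adjusted p = 0.0955), the fenoterol + LPS library of mouse 1 (0.0604) or the LPS library of mouse 2 (0.0612). Without the mean trend neither call held (adjusted p = 0.173 with fenoterol present and 0.0829 on average).

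The other 3 peaks passed the threshold in no comparison or were not tested. The peak 45.3 kb downstream, 1 of the neighbours of the one that fell, ranged from 25.4 to 31.1 RPKM without LPS and from 27.5 to 37.5 RPKM with it, and these ranges overlap. Its average LPS effect was 0.18 (95% interval -0.067 to 0.43, adjusted p = 0.298). The peak 23.1 kb upstream had 14.6 to 17.0 RPKM without LPS and 8.61 to 14.4 RPKM with it, from 6 to 16 reads per library. These ranges did not overlap, but the gap of 0.197 RPKM is less than 1 read is worth there and the average effect was -0.31 (95% interval -0.70 to 0.091, adjusted p = 0.271). The peak 35.5 kb upstream was left out by the filter on low levels, with 2.38 to 6.81 RPKM without LPS and 6.43 to 15.3 RPKM with it, from 2 to 16 reads. With no filter its average LPS effect was 0.82 (adjusted p = 0.0341).

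Of the 5 tested members, 2 rose and 0 fell with LPS alone, beside 6.53% and 3.54% of all tested peaks that rose and fell. With fenoterol present 2 rose and 1 fell, beside 9.43% and 4.32% of all. For the average LPS effect 2 rose and 1 fell, beside 13.3% and 10.1%. Libraries with and without LPS did not overlap at 2 members that were higher and 1 that was lower, beside 12.3% and 11.3% of all tested peaks. The median log2 change of the 5 was 0.15 with LPS alone and 0.22 with fenoterol present, where that of all tested peaks was -0.030 and -0.031. A larger change than that of the start peak was seen at 10.8% of tested peaks with LPS alone and at 18.2% with fenoterol present. For the peak at 51.5 kb these shares were 9.35% and 10.3%.

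**Figure D2:**
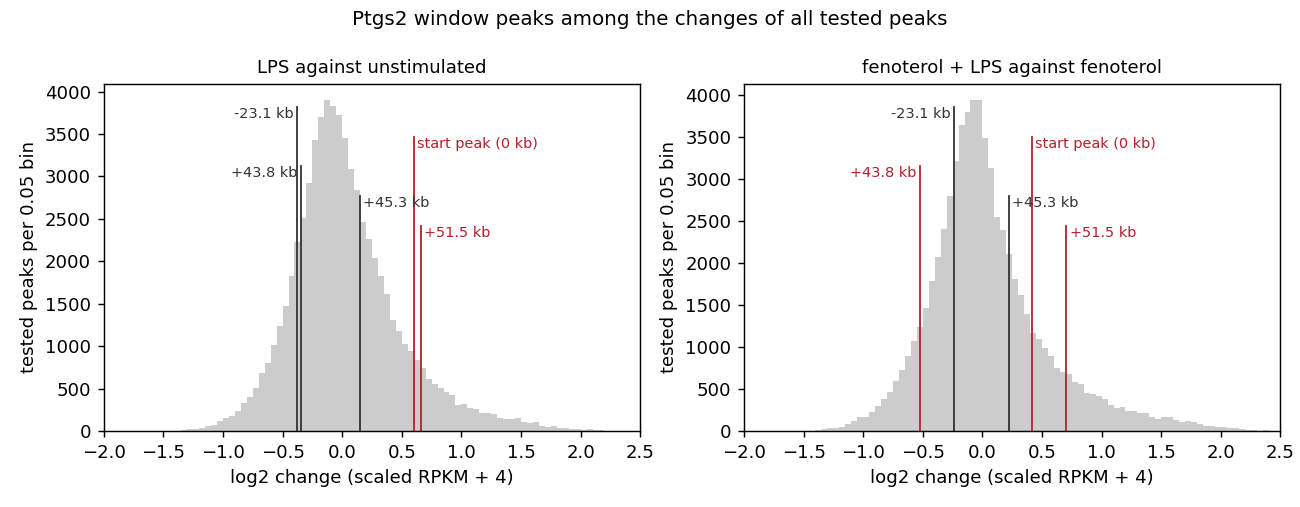
Number of tested peaks per bin of 0.05 (y axis) by log2 change of scaled RPKM + 4 (x axis) for LPS alone and for LPS with fenoterol present, with a line for each of the 5 tested members and red where adjusted p was under 0.05. The start peak, at 0.60 and 0.42, and the peak at 51.5 kb, at 0.66 and 0.70, lie on the right shoulder of both distributions and not at their ends.

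Fenoterol for 15 min without LPS left every member short of the threshold. Of the 5 tested members 0 passed, as against 0.00749% of all tested peaks, and 0 had an unadjusted p under 0.05. By voom 0 of the 5 passed, beside 0.0464% of all. The start peak was 6.34 RPKM higher in mouse 1 and 8.56 RPKM higher in mouse 2 with fenoterol than unstimulated. Its log2 difference was 0.20, with a 95% interval of -0.078 to 0.49 (adjusted p = 0.778). A larger change was seen at 21.8% of tested peaks. The peak at 51.5 kb was likewise higher in both mice, by a log2 difference of 0.19 (95% interval -0.094 to 0.48, adjusted p = 0.794). At the other 3 tested members the mice differed in sign and the estimates lay between -0.072 and -0.0016.

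Giving fenoterol before LPS did not move the start peak detectably from its level with LPS alone. Its group means were 71.3 ± 3.07 RPKM with LPS and 72.2 ± 0.0204 RPKM with both, and the log2 difference was 0.018 (95% interval -0.26 to 0.30, adjusted p = 0.994). At the peak 51.5 kb downstream, 47.2 and 47.0 RPKM with LPS stood against 59.5 and 53.1 RPKM with both. Both mice were higher with fenoterol + LPS, but the log2 difference of 0.23 had a 95% interval of -0.051 to 0.52 (adjusted p = 0.833). Of all tested peaks, 18.9% had a larger change. At the peak 43.8 kb downstream the difference was -0.18 (95% interval -0.53 to 0.16), and the mice differed in sign. None of the 5 tested members passed by limma-trend, where 0% of all tested peaks did, or by voom, where 0.602% did, and 0 of the 5 had an unadjusted p under 0.05 by limma-trend.

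**Figure D3:**
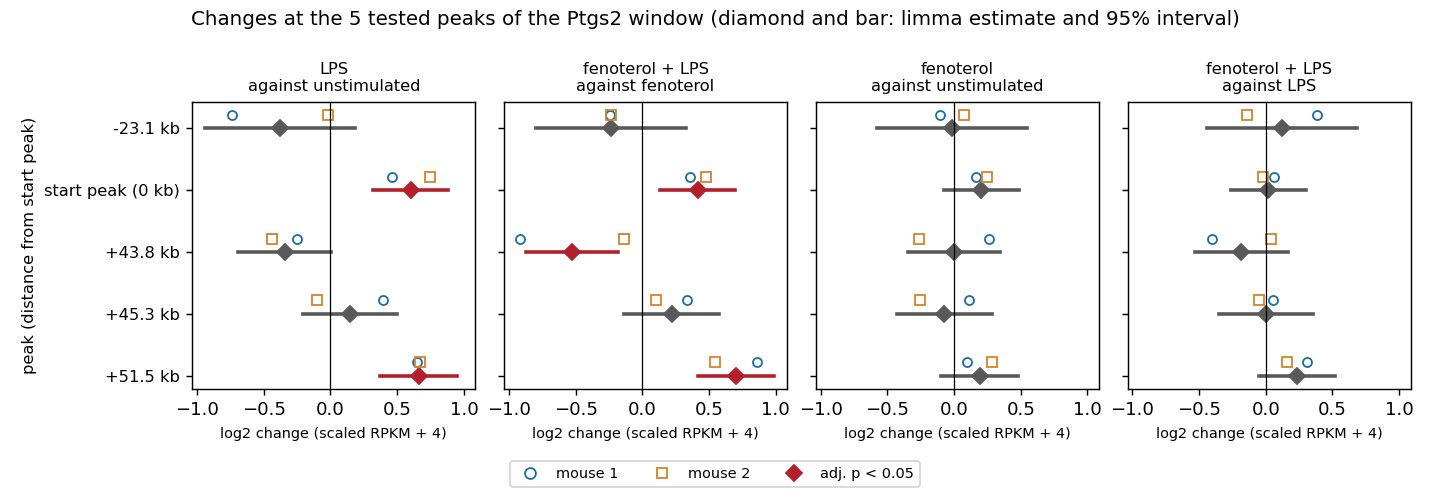
Log2 change of scaled RPKM + 4 (x axis) at the 5 tested members (y axis, distance from the start peak) in 4 comparisons, with a diamond for the limma estimate, a bar for its 95% interval, red where adjusted p was under 0.05, and open symbols for each mouse. Intervals clear of 0 appear in the panels for LPS, at 2 members without and 3 with fenoterol, and in neither panel for fenoterol.

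The LPS response was also set against itself without and with fenoterol. At the start peak it was 0.60 and 0.42, a difference of -0.19 (95% interval -0.58 to 0.21, adjusted p = 0.946). The start peak began higher with fenoterol, at 53.2 against 45.7 RPKM, and ended at nearly the same level. At the peak at 51.5 kb the difference between the responses was 0.043 (95% interval -0.36 to 0.45). Of the 5 members 0 passed for this interaction, by limma-trend, where 0% of all tested peaks passed, or by voom, where 0.00599% did, and 0 had an unadjusted p under 0.05 by limma-trend. In the order of the group means at the start peak, fenoterol + LPS came first and LPS next, and both fenoterol + LPS libraries lay between the 2 LPS libraries. LPS and fenoterol were parted by 18.1 RPKM, and fenoterol and unstimulated by 7.45 RPKM with an interval on the log2 scale that includes 0.

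The windows of the same length on either side held 11 peaks upstream and 10 downstream, against 6 at Ptgs2. Their nearest peaks to the Ptgs2 window lay 84.2 kb upstream and 65.1 kb downstream of the start peak, and neither passed for LPS (average effects 0.24 and -0.10, adjusted p = 0.612 and 0.52). Of 11 tested upstream, 2 rose and 1 fell on average with LPS, and of 9 tested downstream, 2 rose and 0 fell. Among all tested peaks, 13.3% rose and 10.1% fell on average. The values of these 4 peaks that rose and of the 1 that fell, named after their values were seen, are given as a description. Upstream, the peaks 137.0 and 150.4 kb from the start peak (151809968 to 151810337 and 151796600 to 151796823) had average LPS effects of 1.07 (SE 0.13) and 0.87 (SE 0.15). With LPS alone the peak at 150.4 kb did not pass (log2 change 0.27, limma-trend adjusted p = 0.477). Its average came mainly from the cells with fenoterol present (1.46, limma-trend adjusted p = 0.0001). Downstream, the peaks 97.9 and 103.2 kb from the start peak (152044612 to 152045390 and 152050162 to 152050520) had 1.68 (SE 0.14) and 1.71 (SE 0.25). The peak that fell, 144.3 kb upstream (151802639 to 151803018), had -0.54 (SE 0.12). The peak at 103.2 kb averaged 6.18 RPKM in unstimulated and 3.31 RPKM in fenoterol cells, both below the filter of 9.62 RPKM, so it was tested only through its levels with LPS. Its fenoterol library of mouse 1 was at 1 read, the value given to peaks without reads, so its fitted change depends on the pseudocount. The differences between these changes and those of the Ptgs2 peaks were not tested.

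**Figure D4:**
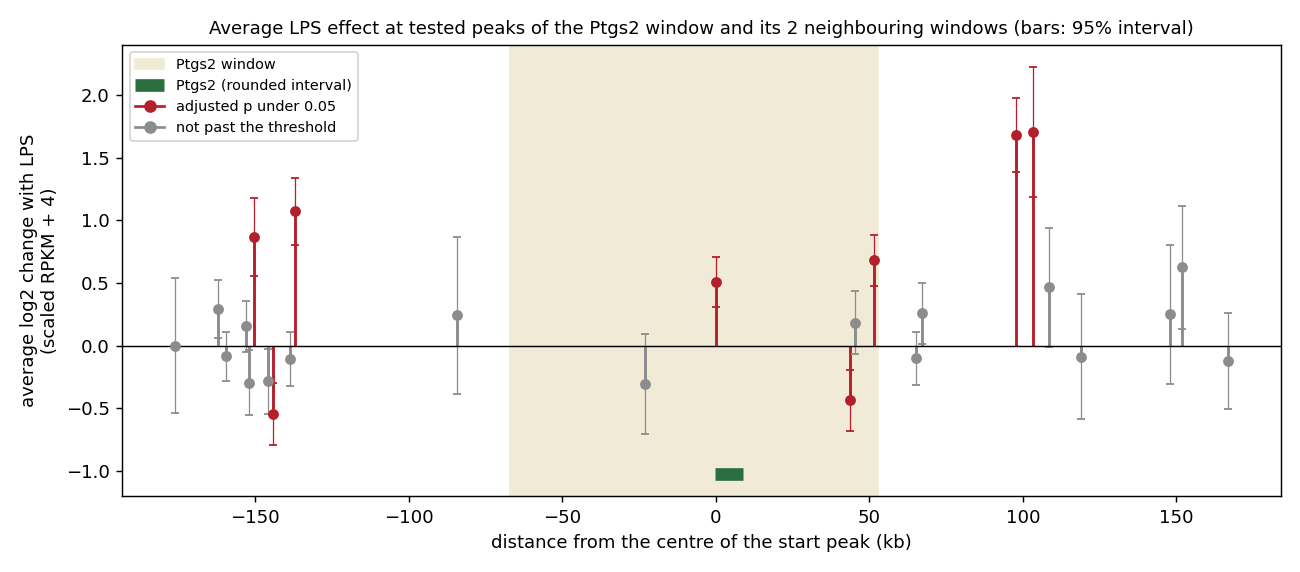
Average log2 change with LPS (y axis, scaled RPKM + 4, bars 95% interval) at tested peaks by distance from the centre of the start peak in kb (x axis), with the Ptgs2 window shaded, the rounded gene interval in green and red for adjusted p under 0.05. The start peak and the peak at 51.5 kb stand at 0.51 and 0.68, and 2 peaks on each side outside the window also rose. The peak 43.8 kb downstream, at -0.43, and the peak 144.3 kb upstream, at -0.54, fell.

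Across the whole table, the 3 peaks whose log2 levels followed the start peak most closely over the 8 libraries were on other chromosomes. They lay on chromosome 6 at 17698829 to 17699902 (Pearson's r = 0.995) and at 100750337 to 100751002 (r = 0.992), and on chromosome 5 at 23505361 to 23505662 (r = 0.987). The first had means of 27.8 and 32.1 RPKM for unstimulated and fenoterol cells and of 47.3 and 48.8 RPKM for LPS and fenoterol + LPS cells, which is the order of the start peak. The third, with 9.35, 11.8, 19.8 and 21.1 RPKM in the same groups, had that order too. At the second, LPS cells (73.6 RPKM) stood above fenoterol + LPS cells (71.7 RPKM). The 3 correlations are the highest of a search over all tested peaks in 8 libraries of 4 groups, given as a description only.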

How the data were processed

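Crude nuclei of macrophages were treated with Tn5, amplified and size selected, per the labels' protocols. The submitters' processing notes name cutadapt, Bowtie2, MACS2, HOMER and build mm9. Whether duplicates were removed, reads shifted for Tn5 or libraries pooled to call peaks is not given in the sources used here. Values were deposited by the authors as RPKM per peak and library. Multiplied by peak length, 100% of values came within 0.01 of whole reads, and the products show that RPKM is relative to reads in peaks.

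RPKM were divided by median-ratio factors and analysed as log2(value + 4). Peaks in the lowest 10% by mean were set aside and the other 66786 were fitted by limma-trend (limma 3.58.1, R 4.3.3; 4 group means over 8 libraries, two-sided, Benjamini-Hochberg over all tested peaks, threshold 0.05). The groups have 2 mice each, and the spread shared over peaks counts as 16.4 degrees of freedom against 4 residual ones. By voom it counts as 142, so p-values by voom rest almost wholly on the shared spread. The fit was also run on simulated counts with a common spread and no mouse effect, so that run does not cover these features of the data.

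Mouse numbers in the sample titles pair the libraries, and differences between the mice correlated across groups at 0.022 to 0.071. Alternatives were a fit with the mouse as a block, voom on recovered reads, the 4 libraries compared alone, leaving out each library, no scaling, quantile normalization, pseudocounts of 0.8 or 20, no removal of low peaks or removal of the lowest 25%, and a fit without the mean trend. Voom with the block or without each library was added after seeing the data. Described in full were peaks past the threshold for LPS, the peak at the gene's start, the smallest p per fenoterol comparison and the highest peak, with, outside the window, the 3 peaks that correlated best with the start peak and the nearest peak on each side. Peaks of the neighbouring windows that rose or fell on average with LPS were added after their values were seen. The members and lists were chosen with earlier results of these data known. A list of prostaglandin pathway genes was not used, since no mm9 annotation was used here.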

Additional observations from a re-analysis of the deposited data

How the results depend on the processing

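The average LPS effects of the start peak (0.40 to 0.60) and of the peak at 51.5 kb (0.50 to 0.79) kept their direction and call under all 26 alternatives run for them; that of the peak at 43.8 kb kept its direction in all 26 and lost its call in 5. Without the mean trend, the members called were 0 in place of 2 for LPS alone and 1 in place of 3 with fenoterol present. Without any 1 library, by limma-trend or voom, these counts ran from 0 to 2 and from 1 to 3, and that of the average effect from 2 to 3; the counts of 0 for the fenoterol comparisons and the interaction stayed at 0. With the mouse as a replicate block the counts were 2 for LPS alone, 3 with fenoterol present and 3 for the average effect, and it changed no call.

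Only differences that never passed the threshold changed sign. For the peak at 43.8 kb, fenoterol against unstimulated became 0.048 on the values as deposited, 0.050 after quantile normalization and 0.0037 with a pseudocount of 20. Without 1 library it ran from -0.28 to 0.28 by limma-trend and from -0.30 to 0.30 by voom, and the interaction there from -0.46 to 0.098 and from -0.51 to 0.095. The interaction at 51.5 kb became -0.0010 as deposited and ran from -0.040 to 0.13 and from -0.058 to 0.12, with another negative value by voom of -0.055. Fenoterol + LPS against LPS at the start peak ran from -0.024 to 0.060 and from -0.025 to 0.063. The causes were not tested.

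Over all tested peaks, calls for LPS alone were 6726, and 3914 without the mean trend, 2075 when the LPS library of mouse 2 was left out and 12506 when its unstimulated library was. With fenoterol present they were 9182, and 3724 without the fenoterol library of mouse 1. For fenoterol alone they were 5, and 0 to 3554 without 1 library; for fenoterol + LPS against LPS they were 0, 256 in the 4 libraries alone and 402 by voom. For the interaction they were 0, 278 without the unstimulated library of mouse 2 and 4 by voom. A planned quasi-likelihood count test was not run, and voom was the only method fitted to recovered reads. The peaks upstream held 2 to 16 reads per library. With no filter, 4 members passed for the average effect in place of 3, the added one being the peak 35.5 kb upstream. For this effect 13.3% and 10.1% of all tested peaks rose and fell in the main fit.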

Other observations

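In the window upstream of Ptgs2, a peak chosen after its values were seen, 150.4 kb upstream of the start peak at 151796600 to 151796823, was high in the fenoterol + LPS libraries. It had 13.4 and 16.2 RPKM in unstimulated cells of mouse 1 and mouse 2, 9.85 and 15.0 RPKM with fenoterol, 17.8 and 19.4 RPKM with LPS, and 44.2 and 37.5 RPKM with both. Both libraries with both agents lay above the other 6, but the peak was chosen with these values seen, so this is a description only. The log2 difference between fenoterol + LPS and LPS was 0.99 (SE 0.21), with an adjusted p of 0.302 by limma-trend and 0.0483 by voom on recovered reads. In this comparison 0.602% of all tested peaks passed by voom and 0% by limma-trend. The interaction was 1.19 (SE 0.30, adjusted p = 0.53; 0.558 by voom).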
